A study of Bos taurus with 20 samples.

Results

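Splicing factors of the hnRNP, SR protein, SF3 and snRNP subfamilies were examined in bovine morulae through the 51 probe sets, of 26773 on the array, whose single gene symbol starts with HNRNP, SRSF, SF3A, SF3B or SNRP, with SNRPN left out. They stand for 48 of the 18010 genes named by a probe set with 1 symbol: 19 hnRNP genes with 19 probe sets, 10 SR protein genes with 12, 8 SF3 genes with 8 and 11 snRNP genes with 12. Another 7 probe sets carry one of these prefixes together with further symbols and were left out, among them those of *HNRNPA3*, *SRSF3* and *SF3B6*. The groups were female embryos given DKK1, female embryos given vehicle (female control), male embryos given DKK1 and male embryos given vehicle (male control), with 5 arrays each. All were produced in vitro, with X-sorted sperm for females and Y-sorted sperm for males, so that sex is that of the sorted semen. By the methods, such semen does not always give the desired sex, so a pool may hold some embryos of the other sex. Recombinant human DKK1, a secreted inhibitor of WNT signaling, was added at 100 ng/ml on day 5 for 24 h, and morulae were harvested on day 6. Each array held the RNA of 1 pool of 20 morulae, and values are log2 fluorescent intensities. The labels number the pools of each group 1 to 5, and the methods give several fertilization procedures, in each of which the X- and Y-sorted sperm came from the same bulls. Which procedures a pool came from is not stated in the sources used here, so the replicate number was no term of the main model, and the P values measure the spread between these pools only. In such pools, fewer cells of a kind and less RNA per cell cannot be told apart.

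Before an mRNA can be translated, its introns are removed by the spliceosome, which is built from small nuclear ribonucleoproteins (snRNPs). The proteins encoded by the SNRP genes form the ring of Sm proteins shared by several snRNPs and the particular subunits of the U1 and U2 snRNPs, and the SF3A and SF3B complexes are parts of the U2 snRNP that help it hold the branch point of the intron. SR proteins bind exons and mostly promote the use of nearby splice sites, whereas hnRNP proteins coat the nascent transcript and often act against them, so that the balance of these families shapes alternative splicing. After the embryonic genome is activated, as it has been in the bovine morula, the embryo makes mRNAs of its own. Whether the mRNAs measured here were embryonic or maternal was not tested.

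The array labelled male control replicate 2 stood apart. Its SD over all probe sets was 2.11, against 2.21 to 2.30 on the other 19 arrays. For *XIST*, the X-linked RNA of the inactive X chromosome, it had a log2 intensity of 8.81, and for *DDX3Y*, on the Y chromosome, 4.82. Both lie within the range of the female arrays (8.42 to 10.03 and 2.65 to 5.43) and outside that of the other male arrays (6.30 to 8.22 and 6.29 to 8.36). It was kept under its label, and results for the splicing factors that rest on it are also given without it. All 8 genes listed for the morula and its lineages (*POU5F1*, *NANOG*, *SOX2*, *CDX2*, *GATA3*, *GATA6*, *KRT8* and *KRT18*) were among the probe sets tested below, and 0 of the 7 cumulus and granulosa cell genes on the array and 0 of 4 sperm genes were. The log2 of the summed level of the cumulus and granulosa genes lay between 6.80 and 7.55 on all arrays, and that of the sperm genes between 5.81 and 7.62. The sperm gene *TNP1* only just missed the tested set, with a mean of 5.4760 against its lowest mean of 5.4770. It averaged 5.84 in both female groups, 5.26 in male DKK1 and 4.98 in male control embryos.

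Most of these probe sets were among the brightest on the array. Their median log2 intensity over the 20 arrays was 9.67, the 95.8th percentile of all probe sets, whose median was 4.65, and 43 of the 51 lay in the top decile. The median was 10.33 for hnRNP probe sets (range 5.59 to 11.46), 9.65 for snRNP (6.66 to 11.52), 9.47 for SR protein (5.05 to 12.21) and 9.08 for SF3 (8.52 to 10.59). In that decile were 15 of 19 hnRNP, 10 of 12 snRNP, 10 of 12 SR protein and all 8 SF3 probe sets. These ranges overlap widely. The brightness of a probe set also depends on its probes, so the order of the subfamilies is not an order of mRNA abundance. *SRSF9* shows how far this can go, since its probe sets averaged 12.21 (12746197) and 10.93 (12779686), and those of *SNRPG*, a protein of the Sm ring, averaged 10.75 (12706195) and 6.66 (12765901). Some of these genes have near-identical copies elsewhere in mammalian genomes, and whether the probes also take up RNA from such copies was not tested.

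**Figure D1:**
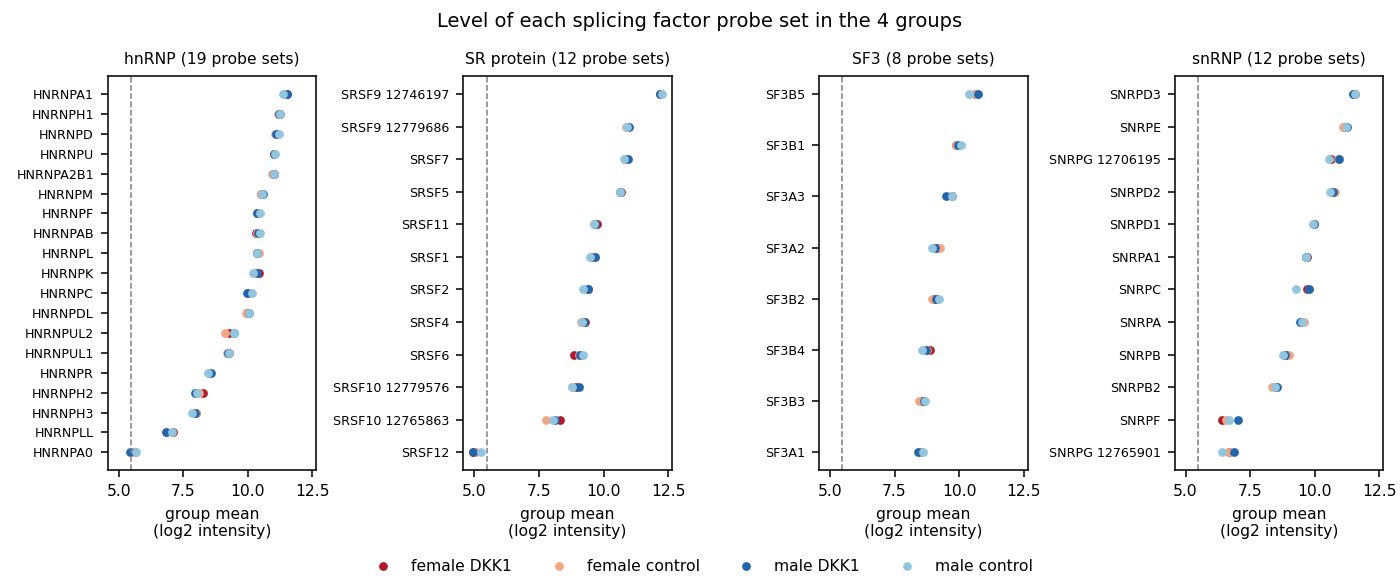
Mean log2 intensity (x axis) of each of the 51 probe sets (rows, ordered by mean within each subfamily) in female DKK1, female control, male DKK1 and male control embryos (dots, 5 arrays each). The dots of a row lie close together beside the spread between rows, and only *SRSF12*, at 5.05, has a mean over all 20 arrays below the dashed line at 5.48, the lowest mean of the tested set.

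At the top of the hnRNP subfamily was *HNRNPA1*, which binds pre-mRNA and often represses exons. It had 11.53, 11.43, 11.53, 11.58 and 11.48 in female DKK1 and 11.48, 11.33, 11.42, 11.52 and 11.47 in female control embryos. In males it had 11.61, 11.56, 11.44, 11.48 and 11.49 with DKK1 and 11.53, 10.87, 11.41, 11.46 and 11.50 in controls. Apart from the 10.87 of male control replicate 2, all arrays lay within 11.33 to 11.61 and the groups overlapped. *HNRNPH1*, which binds runs of G, *HNRNPD*, which also binds AU-rich elements of mRNAs, *HNRNPU* and *HNRNPA2B1* followed with means of 11.21, 11.12, 11.02 and 11.00. *HNRNPA0* (5.59) and *HNRNPLL* (6.95), known in mouse and human lymphocytes for its part in the splicing of CD45, were the dimmest.

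*SRSF9* (probe set 12746197), an SR protein, had the highest mean of all members. Its values were 12.12, 12.16, 12.16, 12.33 and 12.18 in female DKK1 and 12.11, 12.17, 12.24, 12.14 and 12.26 in female control embryos. Among males, DKK1 pools had 12.20, 12.05, 12.17, 12.27 and 12.19, and control pools 12.19, 12.35, 12.46, 12.16 and 12.24. The highest value was in a male control pool, and no group was separate from the others. *SRSF7*, which also takes part in mRNA export, and *SRSF5* averaged 10.86 and 10.64, and the long-studied *SRSF1* and *SRSF2* 9.60 and 9.33. At the low end was *SRSF12*, with 4.95 ± 0.23 in female DKK1, 5.05 ± 0.37 in female control, 4.94 ± 0.38 in male DKK1 and 5.25 ± 0.34 in male control embryos (SD, n = 5 each).

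Among snRNP genes, *SNRPD3* of the Sm ring had the highest mean. It measured 11.54, 11.43, 11.59, 11.64 and 11.51 in female DKK1 and 11.47, 11.51, 11.36, 11.57 and 11.52 in female control embryos. In male DKK1 embryos it had 11.57, 11.39, 11.36, 11.52 and 11.62, and in male control embryos 11.43, 11.72, 11.67, 11.50 and 11.54. The groups overlapped throughout. The probe sets of the other Sm proteins ranged from 6.66 for the dimmer one of *SNRPG* and 6.67 for *SNRPF* to 11.17 for *SNRPE*, the U1 proteins *SNRPA* and *SNRPC* had 9.49 and 9.63, and the U2 proteins *SNRPA1* and *SNRPB2* had 9.68 and 8.46. In SF3, *SF3B5*, a small subunit of SF3B, was at the top with 10.59, followed by *SF3B1*, its large scaffold that contacts the branch region, with 9.95, and *SF3A3* with 9.67, and the other 5 lay between 8.52 and 9.09.

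Effects were tested with limma over the 9933 probe sets of highest mean, which hold 50 of the 51 members and leave out *SRSF12*. Within groups these 50 varied little. The median SD between arrays of a group was 0.176 over the members, against 0.366 over the tested set, and 0.137 for hnRNP, 0.181 for SR protein, 0.206 for snRNP and 0.215 for SF3 members. *SRSF9* (12779686) had the smallest SD of the members, 0.0611, and *SRSF10* (12765863) the largest, 0.576. The members were also brighter than the tested set, whose median was 7.24, and the part of brightness in the smaller SD was not tested. In place on the genome, the 48 genes were scattered over 21 chromosomes of the cattle assembly ARS-UCD2.0. No chromosome held more than 5, and *HNRNPD* and *HNRNPDL* are neighbours on chromosome 6.

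Over both sexes, no splicing factor differed between DKK1 and control embryos beyond the adjusted threshold, and the differences measured were small. None of the 50 members passed an adjusted P under 0.05 for DKK1 minus control, in limma or in the unmoderated linear model, nor did any of the 9933 probe sets. At an unadjusted P under 0.05 there were 2 members, both higher with DKK1 (4% of the 50), against 3.61% of the tested set in either direction and 2.37% higher. These were *SF3B5* (0.19 on the log2 scale, SE 0.0866) and *HNRNPK* (0.16, SE 0.0751), both with an adjusted P of 1.00. The 2 became 0 after quantile normalization over the tested set, after centring each array on its median and with array weights. The differences of the members ran from -0.16 (*SRSF6*) to 0.31 (*SRSF10*, 12765863). None reached the 1.5-fold change that the study used as a criterion, and few of the tested probe sets did either (157 of 9933). The 95% interval of the difference lay wholly within a change of 1.5-fold in either direction for 47 of 50 members, against 72.0% of the tested set. It reached beyond for both probe sets of *SRSF10* (-0.19 to 0.82 and -0.18 to 0.62) and for 1 of *SNRPG* (12765901, -0.26 to 0.66). Within a sex the intervals were wider. They lay within that change for 43 of 50 members in females and 41 of 50 in males, against 41.4% and 40.8% of the tested set. Among those reaching beyond it in males were *SF3B5* (0.11 to 0.62) and *SNRPC* (0.10 to 0.89).

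By subfamily, the median DKK1 minus control difference was 0.01 for hnRNP, 0.07 for SR protein, -0.01 for SF3 and 0.04 for snRNP members, and 0.03 for the 50 members as for the whole tested set. Positive differences were found for 12 of 19 hnRNP, 9 of 11 SR protein, 4 of 8 SF3 and 8 of 12 snRNP members. Without male control replicate 2 the medians were 0.03 for hnRNP, 0.03 for SR protein, 0.02 for SF3 and 0.03 for snRNP members, so that the SF3 median changed sign and the SR protein median was more than 1.5 times smaller. They were -0.02, 0.03, -0.04 and 0.01 after quantile normalization and -0.03, 0.03, -0.05 and -0.00 with the arrays centred on their medians, in the same order, so that the hnRNP median was below 0 under both. The 33 positive differences of the 50 became 23 after quantile normalization over the tested set and 22 with the arrays centred on their medians, and over the tested set the 5812 positive of 9933 became 4890 and 4665. For SR protein members 7 of 11 were then positive under either scaling.

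*HNRNPK* binds C-rich stretches of RNA and DNA. Female DKK1 embryos had 10.43, 10.40, 10.59, 10.42 and 10.40 and female control embryos 10.19, 10.17, 10.31, 10.53 and 10.28. In males given DKK1 it had 10.32, 10.30, 10.26, 10.51 and 10.42, and in male control embryos 10.28, 9.97, 10.22, 10.23 and 10.27. In females 4 of the control pools lay below every DKK1 pool and 1 above all but 1 of them, and in males the lowest value was that of male control replicate 2. The DKK1 minus control difference was 0.15 in females (SE 0.106) and 0.17 in males (SE 0.106). Without male control replicate 2 the difference over both sexes was 0.13, and it no longer had an unadjusted P under 0.05.

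Within females, no member passed, at the adjusted P or at an unadjusted P under 0.05, against 4.11% of the tested set at the unadjusted P. The unmoderated linear model gave 1 at the unadjusted P. The smallest P belonged to *SRSF10* (12765863), an SR-like protein that represses splicing when it is dephosphorylated. It had 8.72, 7.82, 7.83, 9.23 and 8.06 in female DKK1 and 8.28, 7.33, 6.59, 8.51 and 8.21 in female control embryos. Males given DKK1 had 7.70, 8.23, 7.95, 8.11 and 8.55 and male control embryos 8.20, 7.36, 7.84, 8.50 and 8.25. The pools of a group spread over more than the difference between groups, and all overlapped. The DKK1 minus control difference in females was 0.55 (SE 0.342, adjusted P = 0.998), which without female control replicate 3, the lowest pool, was 0.25. The second probe set of the gene gave 0.16 in females (SE 0.269).

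Within males, 2 members had an unadjusted P under 0.05, both higher with DKK1, against 4.28% of the tested set in either direction and 2.96% higher, and none passed the adjusted P (0.986 for both). *SF3B5* was 10.62 ± 0.16 in female DKK1, 10.60 ± 0.07 in female control, 10.75 ± 0.20 in male DKK1 and 10.38 ± 0.16 in male control embryos (SD, n = 5 each). Its values were 10.70, 10.80, 10.47, 10.69 and 10.43 in female DKK1, 10.71, 10.51, 10.59, 10.59 and 10.62 in female control, 11.03, 10.62, 10.50, 10.84 and 10.75 in male DKK1 and 10.58, 10.31, 10.26, 10.53 and 10.22 in male control embryos. The lowest pools, at 10.31, 10.26 and 10.22, were male control pools, while those at 10.58 and 10.53 lay among the pools of the other groups. Of the male DKK1 pools 4 lay above all male control pools, and 1, at 10.50, lay within their range. The difference with DKK1 was 0.02 in females (SE 0.122) and 0.37 in males (SE 0.122). In males it kept an unadjusted P under 0.05 under all 29 alternatives, and was 0.35 without male control replicate 2, when the difference over both sexes was 0.18. The alternatives reuse the same pools, and those without a female array leave the male difference unchanged. *SF3B5* also had the smallest P of the members in males, so they are no independent support. None of the other SF3B or SF3A members had an unadjusted P under 0.05 in males. In males *SF3B1*, *SF3B2*, *SF3B3* and *SF3B4* had differences of -0.11, -0.13, -0.06 and 0.14, and *SF3A1*, *SF3A2* and *SF3A3* had -0.20, 0.14 and -0.24.

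The second was *SNRPC*, a U1 snRNP protein that helps the particle hold the donor splice site. Female DKK1 embryos had 10.10, 9.56, 9.78, 9.39 and 9.72 and female control embryos 9.53, 9.57, 9.44, 10.32 and 9.95. Male DKK1 embryos had 9.88, 9.86, 9.57, 9.66 and 9.87 and male control embryos 9.65, 8.95, 8.90, 9.56 and 9.29. The male control group held the 3 lowest pools of all, and the male groups overlapped only in that 1 control pool, at 9.65, lay above 1 DKK1 pool, at 9.57. The difference with DKK1 was -0.05 in females (SE 0.188) and 0.50 in males (SE 0.188). In males it was 0.42 without male control replicate 2 and 0.40 without male control replicate 3, and of the 29 alternatives only the omission of replicate 3 left it without an unadjusted P under 0.05. Here too the alternatives reuse the same pools, and those without a female array leave the male difference unchanged. *SNRPA*, the other U1 protein among the members, had -0.08 in males (SE 0.128).

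**Figure D2:**
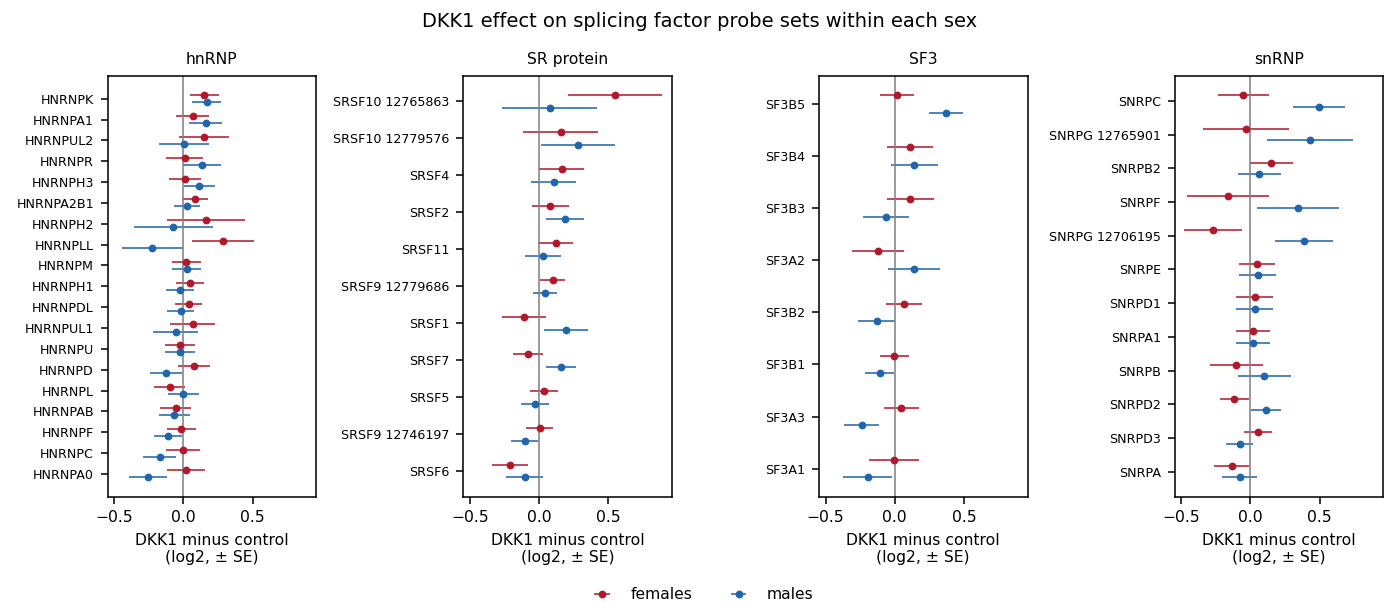
DKK1 minus control difference (x axis, log2, ± SE) of the 50 tested members within females and within males, each from 5 DKK1 and 5 control arrays, ordered within each subfamily by the difference over both sexes. Most bars touch or cross 0, and *SF3B5* and *SNRPC* in males lie at 0.37 and 0.50.

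The median differences in females were 0.04 for hnRNP, 0.08 for SR protein, 0.03 for SF3 and -0.04 for snRNP members, against 0.02 for the tested set, with positive differences in 14 of 19, 8 of 11, 5 of 8 and 5 of 12 members. In males they were -0.02, 0.08, -0.09 and 0.08 in the same order, against 0.04 for the tested set, with 7 of 19, 8 of 11, 3 of 8 and 10 of 12 positive. Of the tested set, 53.6% was positive in females and 56.9% in males. Without male control replicate 2 the medians in males were -0.01 for hnRNP, 0.02 for SR protein, -0.04 for SF3 and 0.10 for snRNP members, with 9 of 19, 6 of 11, 3 of 8 and 9 of 12 positive. The SR protein median in males was 0.02 after quantile normalization and 0.01 after centring on the median, with 6 of 11 positive under both, and the SF3 median was -0.13 and -0.15. The counts in males shifted with the scaling between arrays: the 10 positive snRNP members of 12 became 8 after quantile normalization and 6 after centring on the median, and the 7 positive hnRNP members became 4 under both. The whole tested set shifted the same way, from 5650 positive of 9933 in males to 4837 and 4516. On single arrays, the median over the 12 snRNP members averaged 9.72 ± 0.05 in female DKK1, 9.71 ± 0.08 in female control, 9.72 ± 0.11 in male DKK1 and 9.58 ± 0.10 in male control embryos (SD, n = 5 each). The male control pools ran from 9.43 to 9.70 and the male DKK1 pools from 9.53 to 9.84, so they overlapped. For the 19 hnRNP members the same means were 10.26, 10.24, 10.26 and 10.20.

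**Figure D3:**
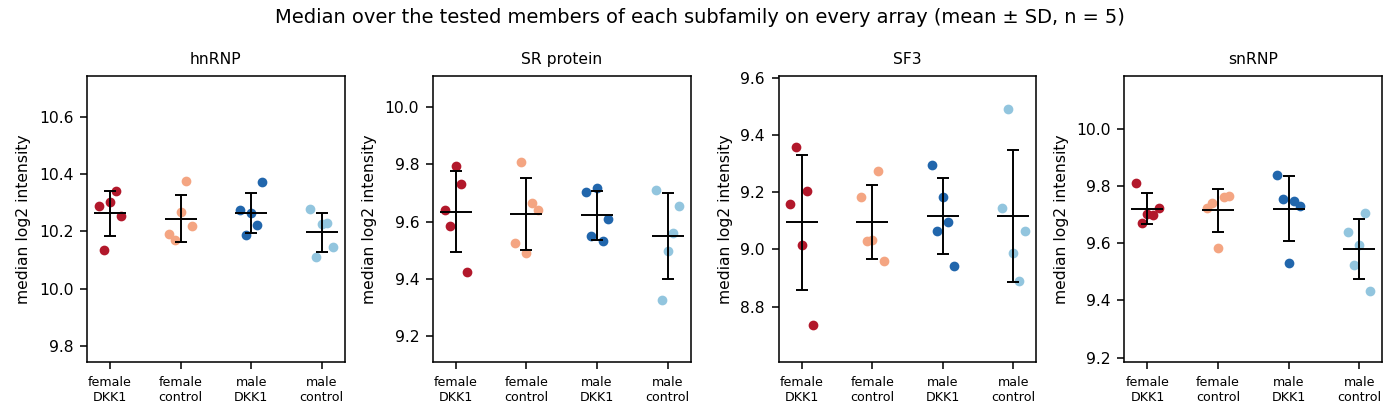
Median log2 intensity over the tested members of each subfamily on every array (dots), with the mean ± SD of the 5 arrays of each group (bars). The y axes span the same width of 1 log2 unit around each subfamily's mean, and all 4 groups overlap in each subfamily, with the lowest snRNP mean, 9.58, in male control embryos.

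Whether DKK1 acted differently in the sexes was tested directly as the interaction, the effect in females less that in males. No member passed the adjusted P, in limma or the unmoderated linear model, and 1 of 50 had an unadjusted P under 0.05 (2%), against 4.6% of the tested set in either direction and 2.63% negative like it. This was *SNRPG* (12706195), a protein of the Sm ring. It had 10.93, 10.80, 10.49, 9.98 and 11.01 in female DKK1 and 10.97, 11.20, 10.63, 10.74 and 11.00 in female control embryos. In male DKK1 pools it was 10.92, 11.05, 10.65, 11.01 and 10.99, and in male control pools 10.83, 9.78, 10.45, 10.81 and 10.81. The lowest pools were 1 of female DKK1, at 9.98, and male control replicate 2, at 9.78, and the groups overlapped. The difference with DKK1 was -0.27 in females (SE 0.211) and 0.39 in males (SE 0.211), which gives an interaction of -0.66 (SE 0.299, adjusted P = 0.970). The size of each within-sex difference hung on 1 pool: without female DKK1 replicate 4, the pool at 9.98, the difference in females was -0.10, and without male control replicate 2 that in males was 0.20. The interaction was -0.49 without the first of these pools and -0.47 without the second, in both cases no longer with an unadjusted P under 0.05. The dimmer probe set of *SNRPG* gave -0.46 (SE 0.437), and with both averaged the interaction was -0.56. Neither had an unadjusted P under 0.05.

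For *SNRPC* the interaction was -0.55 (SE 0.265) and for *SF3B5* -0.35 (SE 0.173), neither with an unadjusted P under 0.05 in the main model. Both lay near that threshold. With the replicate number as a block the same values had an unadjusted P under 0.05 for both genes (adjusted P = 0.955 for each), and of the 29 alternatives 12 gave one for *SNRPC* and 10 for *SF3B5*. Since none passed the adjusted P, the effect in males was not shown to differ from that in females. Without male control replicate 2 the interaction was -0.47 for *SNRPC* and -0.33 for *SF3B5*. Of the snRNP members 10 of 12 had a negative interaction, with a median of -0.13, whereas the medians of SF3, hnRNP and SR protein members were 0.14, 0.06 and 0.06 and that of the tested set -0.02. The 10 negative snRNP members became 7 under both other scalings and 9 without male control replicate 2. Over the tested set 5246 of 9933 were negative. The 4687 positive ones became 5062 after quantile normalization and 5266 after centring on the median. The interaction was the least precise of the comparisons, with a median SE of 0.185 over the members, against 0.131 within a sex and 0.0925 for DKK1 over both. Its 95% interval lay within a change of 1.5-fold for 14 of 19 hnRNP, 8 of 11 SR protein, 2 of 8 SF3 and 7 of 12 snRNP members, against 14.9% of the tested set.

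**Figure D4:**
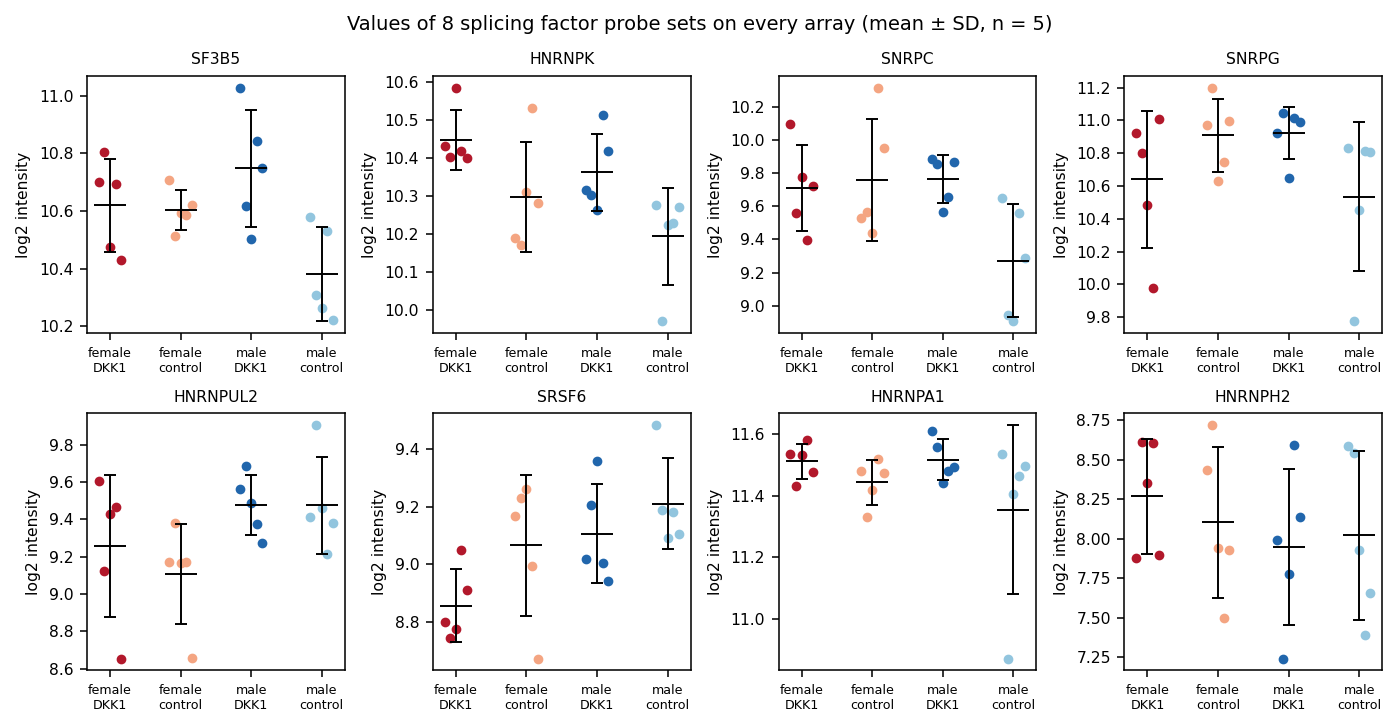
Log2 intensity (y axis, its range differing between panels) of 8 members on every array (dots), with the mean ± SD of the 5 arrays of female DKK1, female control, male DKK1 and male control embryos (bars); *SNRPG* is probe set 12706195. In *HNRNPA1*, *HNRNPK* and *SNRPG* the lowest dot of male control embryos is replicate 2, at 10.87, 9.97 and 9.78, and within each sex the DKK1 and control arrays overlap in every panel.

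Between the sexes, 2 of the 50 members had an unadjusted P under 0.05, both lower in females (4%), against 6.39% of the tested set in either direction and 2.65% lower. None passed the adjusted P, in limma or the unmoderated linear model, whereas 10 probe sets of the tested set (0.101%) passed in limma. These counts over the tested set include male control replicate 2, and with array weights the 10 became 43. Among the members, positive and negative female minus male differences were equally many, 25 each, with a median of -0.00. The subfamily medians lay between -0.01 (hnRNP) and 0.03 (snRNP). Without male control replicate 2 there were 22 positive and 28 negative differences, with a median of -0.02. The subfamily medians then lay between -0.03 (SR protein) and 0.01 (snRNP), and that of SF3 members changed from 0.02 to -0.02. For 48 of 50 members the 95% interval stayed within a change of 1.5-fold, against 69.7% of the tested set, the exceptions being *SNRPF* (-0.36, interval -0.80 to 0.08) and *HNRNPH2*.

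*HNRNPUL2*, a relative of the nuclear matrix protein encoded by *HNRNPU*, had 9.61, 9.13, 9.43, 9.47 and 8.65 in female DKK1 and 9.17, 9.38, 9.17, 9.17 and 8.66 in female control embryos. Among males, DKK1 pools had 9.56, 9.69, 9.49, 9.38 and 9.28, and control pools 9.41, 9.91, 9.46, 9.22 and 9.38. The lowest values were replicate 5 of each female group, replicate 5 was also the lowest of the male DKK1 pools, and the sexes overlapped. Females minus males gave -0.29 (SE 0.127, adjusted P = 0.684). It was -0.24 without male control replicate 2, its highest array, and then had no unadjusted P under 0.05. For *HNRNPU* the difference was -0.00 (SE 0.0772) and for *HNRNPUL1* -0.00 (SE 0.115).

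*SRSF6*, an SR protein, had 8.80, 8.74, 8.77, 9.05 and 8.91 in female DKK1 and 9.17, 9.23, 9.26, 8.99 and 8.67 in female control embryos. In males given DKK1 it had 9.02, 9.21, 9.36, 9.00 and 8.94, and in male control embryos 9.48, 9.19, 9.09, 9.18 and 9.11. Female DKK1 embryos were the low group, with 4 pools below every male pool, while the female control pools lay among the male ones except for 1 at 8.67. The sexes differed by -0.20, females minus males (SE 0.0939, adjusted P = 0.776), and by as much without male control replicate 2, though then with no unadjusted P under 0.05. Next in order of P was *SF3B2*, with -0.19 (SE 0.0932), just outside the unadjusted threshold.

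The single X-linked member was *HNRNPH2*, a G-run binding protein, which lies between *ARMCX4* and *GLA*. It had 7.87, 8.61, 8.35, 8.60 and 7.90 in female DKK1 and 8.43, 8.72, 7.94, 7.50 and 7.93 in female control embryos. Males given DKK1 had 7.99, 7.24, 7.78, 8.59 and 8.14 and male control embryos 8.59, 8.54, 7.93, 7.39 and 7.65. All groups overlapped. The female minus male difference was 0.20 (SE 0.201, interval -0.22 to 0.62), and 0.27 without male control replicate 2. Among 234 tested probe sets placed on the X chromosome, 66.2% had higher values in females with an unadjusted P under 0.05, the median difference was 0.44, and 45 had a smaller difference than *HNRNPH2*. The interval of *HNRNPH2* holds both 0 and that median. The values over the X-linked probe sets include male control replicate 2 and are not given without it.

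The members' groups of arrays were also compared for overlap. No member had groups that did not overlap, for DKK1 within females (0.634% of the tested set did not overlap), DKK1 within males (0.775%), DKK1 over both sexes (0%) or sex (0.0403%).

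Splicing genes outside the 4 subfamilies were counted in 7 lists with 128 tested probe sets, and 0 passed the adjusted P from limma in any comparison. The lists were further snRNP proteins and their recycling factors (30 tested probe sets), splice site recognition and U2 partners (11), factors of the PRP19 complex and the catalytic steps (22), the exon junction complex with SR-related proteins (17), SR protein kinases (7), snRNP assembly (15) and other splicing regulators (26). Their median DKK1 minus control differences lay between 0.02 (PRP19 and catalytic steps) and 0.07 (snRNP assembly). At an unadjusted P under 0.05, 2 were higher and 0 lower with DKK1 (1.56% of the 128, against 3.61% of the tested set): *ISY1*, a factor of the catalytic spliceosome (0.35, SE 0.143), and *SNUPN*, the adaptor that imports assembled snRNPs into the nucleus (0.60, SE 0.276). The median difference over the 128 was 0.04. Within males *SNUPN* (1.02, SE 0.390), *USP39* of the tri-snRNP (0.40, SE 0.166) and the splicing regulator *RBFOX2* (0.35, SE 0.166) were higher with DKK1 and 0 lower (2.34%, against 4.28% of the tested set), and within females 1 was higher and 1 lower (1.56%, against 4.11%). For the interaction 3 were positive and 2 negative (3.91%, against 4.6%). Between the sexes 9 of the 128 had an unadjusted P under 0.05 (7.03%), near the 6.39% of the tested set. Of these 4 were higher in females, all of them X-linked (*RBM3*, *NONO*, *MBNL3* and *GEMIN8*, with differences of 0.49, 0.38, 0.43 and 0.56), and 5 were lower (*SART3*, *TRA2A*, *PNN*, *DDX46* and *SFPQ*, between -0.55 and -0.17).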

How the data were processed

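The 20 deposited arrays hold 1 log2 intensity for each of 26773 probe sets. The authors had made these values in Affymetrix Expression Console with the RMA method, which corrects the background, takes log2 and normalizes arrays by quantiles. Versions of these programs are not given in the sources used here. Array medians lay between 4.58 and 4.82, the number of arrays limits the precision, and no array was left out. Of the probe sets, 18457 carry 1 gene symbol in the platform annotation, 688 several and 7628 none, and all 51 members matched the ARS-UCD2.0 gene table. Groups came from the sex and treatment on the labels. Effects of DKK1, sex and their interaction were tested in R 4.3.3 with limma 3.58.1 (cell means of the 4 groups, moderated variances) on the 9933 probe sets of highest mean, the number that the study calls expressed, since its negative control probes were not used here. The lowest mean of this set was 5.48. Benjamini-Hochberg adjustment ran over this whole set, and counts at an unadjusted P under 0.05, the first criterion of the study, stand beside them. The script was tested on simulated data with 200 changed genes. The 29 alternatives were 9 other settings of the model, the tested set or the scaling, and the omission of each array in turn. Members with values on every array were the brightest of each subfamily, those with the smallest P for each effect (2 for DKK1, sex and the interaction, 1 for DKK1 within each sex) and the X-linked one. Members, lists and rules were chosen with earlier results of these data known. Other steps used Python 3.11.15, pandas 2.3.3, NumPy 2.4.6 and matplotlib 3.10.9. Sequences of probes or proteins were not used here.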

Additional observations from a re-analysis of the deposited data

Results flagged for a closer look

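Values were checked for single pools far from the others of their group, in 60 groups of 5 arrays. Chance alone would give about 1 in 20 for independent groups chosen without regard to their values. These groups share arrays, and several of the members were chosen by P from the same values, so that rate need not hold here. There were 5 such pools. *HNRNPA1* had 10.87 in male control replicate 2, with the other male control pools between 11.41 and 11.53. *HNRNPK* had 9.97 in the same pool, against 10.22 to 10.28 in the others, and 10.59 in female DKK1 replicate 3, against 10.40 to 10.43. *SRSF6* had 9.48 in male control replicate 1, with the others between 9.09 and 9.19. The median over the snRNP members was 9.58 in female control replicate 3 and 9.72 to 9.77 in the other female control pools. The DKK1 effect on *SNRPG* (12706195) differed between females and males at an unadjusted P under 0.05, with an interaction of -0.66 from limma (adjusted P = 0.970).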

How the results depend on the processing

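Of 15 single-member effects examined, 13 kept their direction under all 29 alternatives. The other 2 were near 0: *SF3B5* in females (0.02) was -0.0003 with array weights, -0.0015 with median centring and -0.0294 to 0.0643 without single arrays (below 0 without female DKK1 replicate 1, 2 or 4 or female control replicate 2), and *SNRPC* in females (-0.05) was -0.1466 to 0.0886 without single arrays (above 0 without female control replicate 4 or female DKK1 replicate 4). Several alternatives could not change a difference. The replicate block, the unmoderated linear model, the intensity trend and the changes of the tested set reuse the same values in groups of equal size. Within 1 sex, leaving out an array of the other sex has no effect on the difference either. The number of members past the adjusted P was 0 in every comparison and alternative. Counts at the unadjusted P were small and moved. For DKK1 the 2 members became 1 with a fixed replicate block and 0 with array weights, quantile normalization or median centring. For DKK1 in females 0 became 1, and in males 2 became 4, in the unmoderated linear model. For sex the 2 became 4 in the unmoderated model and 1 after quantile normalization or centring. For the interaction the 1 became 3 with the block, in the unmoderated model, with an intensity trend and robust prior, with no filter on low values and with 5000 probe sets, 2 after quantile normalization and 0 with the probe sets of a gene averaged. Without single arrays the counts ran from 0 to 2 for DKK1, 0 to 1 in females, 1 to 3 in males, 0 to 3 for sex and 0 to 3 for the interaction. For DKK1 the count was 0 without male DKK1 replicate 1, 4 or 5, female DKK1 replicate 1 or 4, female control replicate 2 or 3 or male control replicate 3, and 1 without female control replicate 1, male control replicate 2, 4 or 5 or female DKK1 replicate 2 or 3. It was 1 in females without female control replicate 5 and 1 in males without male control replicate 3. For sex it was 0 without male DKK1 replicate 2, female DKK1 replicate 2 or 5 or female control replicate 5, and 1 without male control replicate 1 or 2, male DKK1 replicate 1 or 3 or female DKK1 replicate 3. For the interaction it was 0 without male DKK1 replicate 1, 4 or 5, male control replicate 3 or female DKK1 replicate 3 or 4, 2 without female DKK1 replicate 1 or 2 or female control replicate 3, and 3 without male control replicate 1 or 4 or male DKK1 replicate 3. The cause was not tested. An unadjusted P under 0.05 was found in 15 of 29 alternatives for *SF3B5* with DKK1, 29 for *SF3B5* in males, 28 for *SNRPC* in males, 12 for *HNRNPK*, 23 for *HNRNPUL2*, 14 for *SRSF6*, 16 for *SNRPG* and, for the interaction, 12 for *SNRPC* and 10 for *SF3B5*. The alternatives share the same pools, so these counts are no independent support. The replicate numbers were not taken to pair the arrays in the main model, since no label says what a number marks. The 30 correlations between same-numbered arrays lay between -0.18 and 0.13, with 2 over 0.1. Their median was 0.02, against -0.00 for arrays of different numbers, and the difference was not tested. Yet 12 of 20 arrays correlated best with an array of their own number, though most arrays of the other groups carry another number. Whether pools of 1 number share something was not tested. With the replicate block, *HNRNPK* for DKK1 and *SRSF6* for sex had no unadjusted P under 0.05. *SF3B5* for DKK1 (SE 0.0791) and *HNRNPUL2* for sex (SE 0.107) kept one. The SE of *SRSF10* (12765863) in females was 0.264 with the block and 0.342 without, and neither gave an unadjusted P under 0.05.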
